A study of Homo sapiens with 8 samples.

Results

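The nuclear-encoded respiratory chain genes were examined as 1 group: the subunits of complexes I to V of the mitochondrial inner membrane that match the symbols NDUFA, NDUFB, NDUFC, NDUFS or NDUFV with a number, SDHA to SDHD, UQCR, CYC1, COX4I, COX5 to COX8 and ATP5. The symbols picked 85 of the 26760 genes in the table, and 77 of the 85 had enough counts to be tested among 12303 genes in all. Complex I had 36 members, complex II 4, complex III 11, complex IV 17 and complex V 17. NDUFA4, named after complex I and now assigned to complex IV, was placed in complex IV.

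RNA was sequenced from LK2 cells, a line from a human lung squamous cell carcinoma, as 8 libraries in 4 groups of 2. Cells carried pLEX lentiviral vectors that express DNp63 constitutively, or the same vectors with GFP as the control. DNp63 is the N-terminally truncated form of p63, a transcription factor of squamous epithelium. In replicate 1 of both groups the vector was pLEX_306 and in replicate 2 it was pLEX_307. Other cells carried DNp63 in the vector pLIX_403 under doxycycline control, with the drug at 2 µg/ml over 6 days (induced) or without it (uninduced), so uninduced cells carried the DNp63 vector too. All cells were of 1 line, grown in RPMI-1640 with serum, and no label states that replicates came from separate cultures. The p-values therefore measure only the spread between these libraries, which may be technical.

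Complexes I to IV pass electrons from NADH and succinate to oxygen and, except for complex II, pump protons across the inner membrane; complex V, ATP synthase, uses the proton gradient to make ATP. Most subunits are encoded in the nucleus and imported, and the rest in mitochondrial DNA, so the complexes need products of both genomes. Nuclear respiratory factor 1 (NRF1) and the ETS family factor GABP are known to act at the promoters of many of these genes.

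Library totals ranged from 2758158 to 10372248 counts, and 3 counts in 1 library corresponded to 0.292 to 1.11 CPM (counts relative to the scaled library size). TP63, the gene that encodes DNp63, was at 1850 and 3816 CPM in DNp63 cells and 0.739 and 1.91 CPM in GFP cells. It stood at 412 and 422 CPM in induced cells and 12.7 and 14.8 CPM in uninduced cells. The order follows the labels; these counts include vector reads wherever they match the gene. The squamous keratin gene KRT5 was at 398 and 18.8 CPM in DNp63 cells and 0.370 and 0.635 CPM in GFP cells. KRT14 was at 0 in every library. The squamous markers KRT6A, PKP1 and DSG3 were higher in both DNp63 libraries than in both GFP libraries. SOX2, of the same list, went the other way, at 68.3 and 96.4 CPM in DNp63 cells and 278 and 517 CPM in GFP cells. The neural markers POU3F2 and NES were lower in both DNp63 libraries, while SYP and CHGA were near 0 in every library. Summed levels of immune markers (PTPRC, CD68, LYZ) were 0.494 to 3.72 CPM, of endothelial markers (PECAM1, KDR, VWF) 0 to 2.33 CPM and of fibroblast markers (COL1A1, COL1A2, COL3A1, DCN) 8.28 to 30.3 CPM, with PECAM1, COL3A1 and DCN at 0.

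The start regions of 4 of the 6 members that fell under constitutive DNp63 are shown as examples of the promoter sequence of the group, 250 bases up to the annotated start of each gene on its own strand, from RefSeq (GRCh38.p14). Capitals mark matches, on either strand, to the NRF1 motif (GCGCA and GCGC with 1 base of any kind between them), the ETS motif CCGGAA or the CCAAT box CCAAT. The SDHA window (chr5:218070-218319, + strand) has 4 NRF1 matches and 1 ETS match. The NDUFA9 window (chr12:4648864-4649113, + strand) has 1 NRF1 match, the ATP5G1 window (chr17:48892537-48892786, + strand; current symbol ATP5MC1) 4 CCAAT matches, and the COX4I1 window (chr16:85799445-85799694, + strand) 2 ETS matches.
SDHA: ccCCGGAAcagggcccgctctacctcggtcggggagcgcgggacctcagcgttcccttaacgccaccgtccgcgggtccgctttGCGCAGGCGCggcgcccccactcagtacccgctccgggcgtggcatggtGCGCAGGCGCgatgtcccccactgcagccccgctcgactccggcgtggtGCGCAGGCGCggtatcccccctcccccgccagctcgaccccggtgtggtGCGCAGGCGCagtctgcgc
NDUFA9: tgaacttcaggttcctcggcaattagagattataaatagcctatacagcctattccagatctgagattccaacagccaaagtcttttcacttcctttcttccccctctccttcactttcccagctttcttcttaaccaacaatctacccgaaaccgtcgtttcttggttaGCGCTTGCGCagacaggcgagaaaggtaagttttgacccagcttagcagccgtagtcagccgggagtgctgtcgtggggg
ATP5G1: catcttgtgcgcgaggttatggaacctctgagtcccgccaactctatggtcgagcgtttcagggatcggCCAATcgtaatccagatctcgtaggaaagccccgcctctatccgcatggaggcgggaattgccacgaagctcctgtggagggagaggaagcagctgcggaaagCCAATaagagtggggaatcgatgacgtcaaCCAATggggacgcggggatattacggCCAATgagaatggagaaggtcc
COX4I1: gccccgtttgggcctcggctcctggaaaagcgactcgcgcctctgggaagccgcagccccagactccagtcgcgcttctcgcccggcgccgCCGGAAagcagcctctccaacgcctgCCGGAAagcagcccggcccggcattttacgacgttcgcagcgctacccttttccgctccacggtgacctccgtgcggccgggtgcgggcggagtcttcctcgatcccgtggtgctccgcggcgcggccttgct

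Windows were found for 61 of the 77 members tested. The NRF1 motif was in 13 of the 61 (21.3%), against 6.20% of the 27305 genes with a window, and the ETS motif in 27 (44.3%), against 17.2%. The CCAAT box was in 19 (31.1%), against 37.0%. A p63 motif (CATG and again CATG, with 6 bases of any kind between them) had no match for the 61 members and was found for 0.374% of the 27305 genes. Its absence says only that these letters are not in these windows. A gene counted if any of its windows matched. The 27305 genes were not limited to those tested here, so the shares are of unlike sets. No motif holds another, a match is a description and not a site, and these motifs were chosen after the fold changes of the members were known. Members with an NRF1 match had a median log2 fold change, DNp63 over GFP, of −0.53 (13 members) and those without one of −0.46 (48 members). With and without an ETS match the median was −0.46 in both.

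Under constitutive DNp63 the respiratory chain genes were lower as a group, in each of the 5 complexes. The summed level of the 85 members was 9408 and 7875 CPM in DNp63 cells and 11365 and 12813 CPM in GFP cells, a mean of 8642 ± 1084 CPM against 12089 ± 1024 CPM (SD, n = 2 each). The libraries did not overlap, and the DNp63 mean was 71.5% of the GFP mean. Such sums come from bulk RNA, where fewer cells that express a gene and less RNA per cell cannot be told apart. In the inducible system the summed level was 12460 and 13092 CPM in induced cells and 12734 and 12584 CPM in uninduced cells, a mean of 101% of uninduced, with overlapping libraries. Both DNp63 libraries lay below all 6 other libraries. Exact permutation of 2 libraries against 2 cannot give a two-sided p below 0.333, so the sums carry no test.

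**Figure D1:**
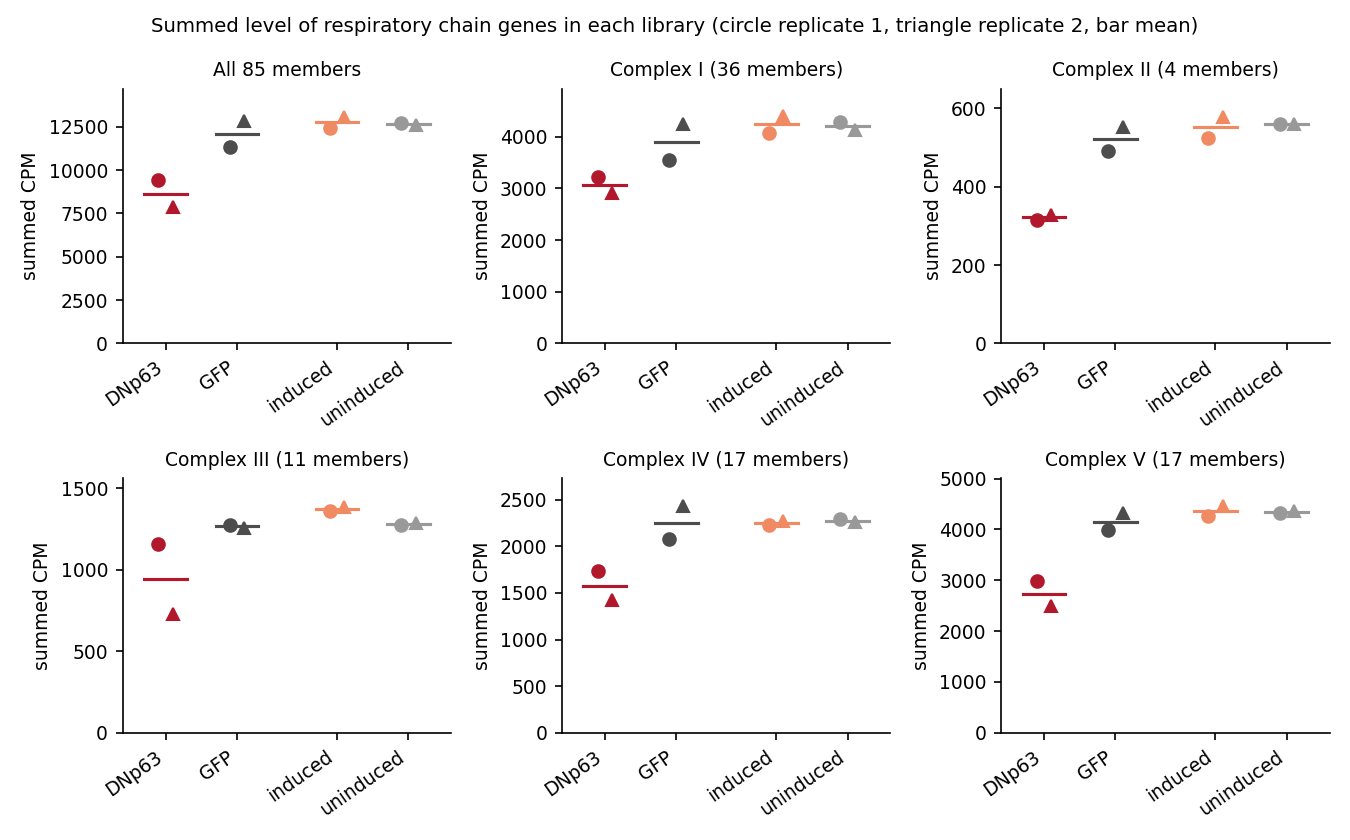
Summed CPM of the members (vertical axes, from 0) for all 85 and for each complex, by group, with a circle for replicate 1, a triangle for replicate 2 and a bar for the mean of 2. In every panel both DNp63 libraries are below both GFP libraries, while induced and uninduced libraries are close (all members: 71.5% and 101% of the control mean).

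Gene by gene, DNp63 cells against GFP cells had a median log2 fold change of −0.50 over the 77 members tested, a level of 70.9%, while the median of all 12303 genes was 0.01. The estimate was below 0 for 74 of the 77, against 49.2% of all genes. In 43 of the 77 (55.8%) both DNp63 libraries were below both GFP libraries, against 22.0% of all genes, and in none were both above, against 22.4%. The edgeR quasi-likelihood test, adjusted over all genes, called 6 of the 77 lower (7.79%), against 3.99% of all genes called lower, and none higher, against 4.17%. At an unadjusted p below 0.05 it was 31 of 77 lower (40.3%), against 11.6% of all genes, and 0 higher, against 11.5%. DESeq2 called 10 members lower and 0 higher, where it called 602 of 12295 genes lower and 567 higher. With the replicate number, and so the vector, as a block, 9 members were called lower, as were 688 of 12303 genes. SDHA, ATP5B, NDUFA9, ATP5G1 and COX4I1 were among the members called. NDUFA4 (adjusted p = 0.0519) and COX8A (0.0664) lay just outside the threshold of 0.05.

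The median was −0.42 in complex I, −0.55 in complex II, −0.47 in complex III, −0.64 in complex IV and −0.55 in complex V. The summed level in DNp63 cells as a share of that in GFP cells was 78.8% for complex I, 61.7% for complex II, 74.4% for complex III, 69.9% for complex IV and 65.8% for complex V. No test of a difference between complexes was made.

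**Figure D2:**
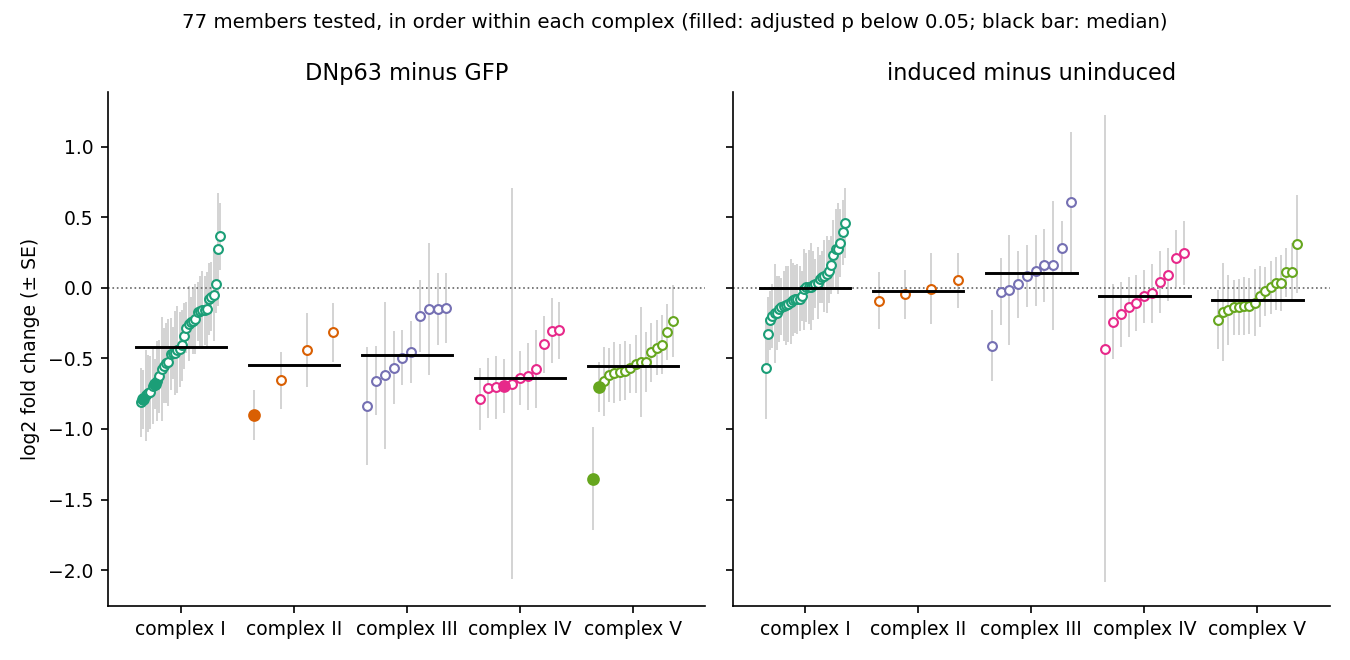
Log2 fold change of each of the 77 members tested with its SE (vertical axis), ordered within complexes I to V, for DNp63 minus GFP on the left and induced minus uninduced on the right; filled points passed the test and black bars are medians. On the left 74 of 77 points are below 0 and 6 are filled; on the right the points scatter around 0 with none filled. The wide bar belongs to COX7B, whose libraries disagree.

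Complex I takes electrons from NADH to ubiquinone. Of its 36 members 33 had an estimate below 0, against 49.2% of all genes. In complex I 2 members fell, NDUFA9 among them, where 3.99% of all genes were called lower. NDUFA9, an accessory subunit where the matrix arm meets the membrane arm, was at 56.6 and 55.7 CPM in DNp63 cells and 111 and 83.9 CPM in GFP cells. Its levels were 73.6 and 79.3 CPM in induced cells and 76.1 and 91.1 CPM in uninduced cells. Both DNp63 libraries were lowest of the 8, and NDUFA9 fell by 0.79 on the log2 scale (SE 0.21, n = 2 per group, adjusted p = 0.0429).

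NDUFV1, the core subunit of complex I that binds NADH, was at 244 and 208 CPM in DNp63 cells and 280 and 341 CPM in GFP cells, without overlap, and did not pass (−0.46 ± 0.19, adjusted p = 0.164). NDUFS1, the largest iron-sulfur subunit, was at 101 and 63.8 CPM in DNp63 cells and 106 and 77.7 CPM in GFP cells. These overlap (−0.15 ± 0.26, adjusted p = 0.796). The iron-sulfur subunits NDUFV2 (−0.24 ± 0.18) and NDUFS7 (−0.66 ± 0.28) did not overlap between the groups, while NDUFS3 (−0.16 ± 0.28) and NDUFS8 (−0.05 ± 0.32) did.

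Among accessory subunits of complex I the estimates reached from −0.81 for NDUFA1, a small subunit of the membrane arm, to 0.37 for NDUFA8. NDUFA1 was at 21.1 and 22.3 CPM in DNp63 cells and 29.9 and 45.7 CPM in GFP cells, without overlap, and did not pass (−0.81 ± 0.25, adjusted p = 0.0691). NDUFA8 was at 156 and 105 CPM in DNp63 cells and 86.1 and 115 CPM in GFP cells, with overlap (adjusted p = 0.402). NDUFA8, NDUFC2 (0.27 ± 0.40) and NDUFB10 (0.03 ± 0.21) were the 3 members of any complex with an estimate above 0. In 13 of the 36 members of complex I the DNp63 libraries were both below the GFP libraries, where 22.0% of all genes had this order.

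Complex II, succinate dehydrogenase, is at once part of the tricarboxylic acid cycle, and all of its subunits are nuclear. SDHA, the flavoprotein that oxidizes succinate, was at 149 and 161 CPM in DNp63 cells and 276 and 302 CPM in GFP cells. Its levels were 240 and 280 CPM in induced cells and 275 and 261 CPM in uninduced cells. The gap between DNp63 and GFP libraries was wider than the spread within either group, and SDHA fell by 0.90 (SE 0.18, adjusted p = 0.0116), the smallest adjusted p among the members. It was also the call least tied to single libraries: leaving out each of the 8 libraries in turn kept it, at adjusted p from 0.0115 to 0.0472. The counting could divide reads between SDHA and its pseudogenes SDHAP1, SDHAP2 and SDHAP3. These held 53 and 68 counts in DNp63 cells and 38 and 51 in GFP cells, which is 10.1% and 8.20% of the SDHA counts in DNp63 cells and 5.09% and 3.58% in GFP cells.

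SDHB, the iron-sulfur subunit of complex II, was at 66.9 and 50.04 CPM in DNp63 cells and 88.3 and 94.9 CPM in GFP cells, with 101 and 111 CPM in induced cells and 101 and 104 CPM in uninduced cells. The DNp63 libraries were lowest, and the estimate of −0.65 ± 0.20 did not pass (adjusted p = 0.0737). Neither membrane anchor of the complex passed. SDHC was at 46.3 and 70.8 CPM in DNp63 cells and 63.2 and 95.5 CPM in GFP cells, with overlap (−0.44 ± 0.26, adjusted p = 0.361). In induced cells it was at 114 and 94.8 CPM and in uninduced cells at 101 and 109 CPM. SDHD, at 53.4 and 45.4 CPM in DNp63 cells and 62.4 and 60.1 CPM in GFP cells, did not overlap (−0.31 ± 0.21, adjusted p = 0.422). It was at 69.5 and 91.5 CPM in induced cells and 84.3 and 86.7 CPM in uninduced cells, so that SDHD was higher in every inducible library than in every constitutive one.

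**Figure D3:**
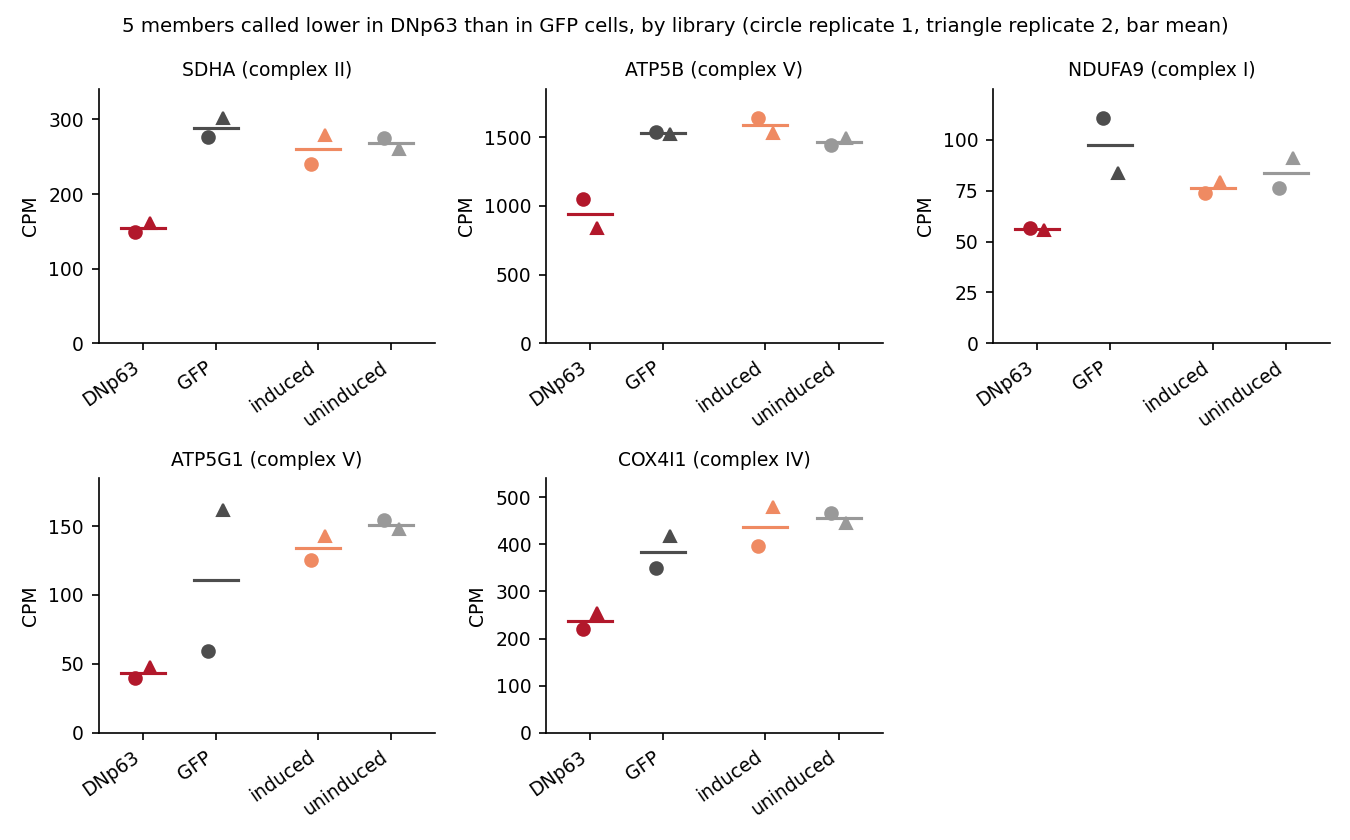
CPM (vertical axes, from 0) in each of the 8 libraries of 5 members that fell in DNp63 cells against GFP cells, with a circle for replicate 1, a triangle for replicate 2 and a bar for the mean. In all 5 the DNp63 libraries are below the 6 other libraries; for ATP5G1 the GFP libraries are far apart, at 59.5 and 162 CPM.

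Complex III passes electrons from ubiquinol to cytochrome c. None of its 10 members tested passed, by edgeR or by DESeq2, and all 10 estimates were below 0. At an unadjusted p below 0.05, 2 were lower, UQCRC2 and UQCRH, where 11.6% of all genes were. UQCRC1, a core protein, was at 270 and 172 CPM in DNp63 cells and 307.4 and 296 CPM in GFP cells, without overlap (−0.45 ± 0.22, adjusted p = 0.251). UQCRC2, the other core protein, was at 66.6 and 47.9 CPM in DNp63 cells and 102 and 78.1 CPM in GFP cells, also without overlap (−0.66 ± 0.24, adjusted p = 0.130). CYC1, cytochrome c1, was at 333 and 174 CPM in DNp63 cells and 370 and 380 CPM in GFP cells (−0.57 ± 0.26, adjusted p = 0.224). Its DNp63 libraries lay far apart, with replicate 1 near the GFP level.

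UQCRFS1, the Rieske iron-sulfur protein of complex III, split by replicate number and not by DNp63. It was at 86.3 and 26.8 CPM in DNp63 cells and 83.9 and 41.7 CPM in GFP cells, so that both replicate 1 libraries were high (−0.15 ± 0.47, adjusted p = 0.889). In induced cells it was at 55.0 and 47.8 CPM and in uninduced cells at 39.7 and 52.0 CPM. The hinge protein gene UQCRH was at 113 and 102 CPM in DNp63 cells and 139 and 164 CPM in GFP cells, without overlap (−0.50 ± 0.19, adjusted p = 0.154). Its near copy UQCRHL was at 8.86 and 3.88 CPM in DNp63 cells and 14.04 and 5.72 CPM in GFP cells, with overlap (−0.62 ± 0.52). Reads of the pair could be divided between them by the counting, and their values are uncertain to that extent.

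Complex IV, cytochrome c oxidase, passes electrons to oxygen. All 11 members tested had an estimate below 0, in 8 of the 11 the groups did not overlap, and 1 fell. Of all genes, 22.0% were lower without overlap and 3.99% were called lower. COX4I1, the common form of subunit 4, which regulates the enzyme, was at 220 and 255 CPM in DNp63 cells and 351 and 418 CPM in GFP cells. It was at 397 and 479 CPM in induced cells and 466 and 446 CPM in uninduced cells. The DNp63 libraries were below all others, and COX4I1 fell by 0.70 (SE 0.19, adjusted p = 0.0481). NDUFA4 was at 69.2 and 79.7 CPM in DNp63 cells and 104 and 153 CPM in GFP cells, without overlap, and missed the threshold (−0.79 ± 0.22, adjusted p = 0.0519). COX5A was at 156 and 122 CPM in DNp63 cells and 173 and 194 CPM in GFP cells, also without overlap (−0.40 ± 0.20, adjusted p = 0.277).

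Several subunits of complex IV have a common form and one found in particular tissues, and here the common forms carried the counts. COX6A1 was at 436 and 311 CPM in DNp63 cells and 432 and 488 CPM in GFP cells, with overlap (−0.30 ± 0.20). COX6B1 was at 122 and 130 CPM in DNp63 cells and 171 and 221 CPM in GFP cells, without overlap (−0.64 ± 0.19, adjusted p = 0.0695). COX8A was at 177 and 121 CPM in DNp63 cells and 234 and 253 CPM in GFP cells, without overlap (−0.71 ± 0.21). COX7A2, at 113 and 78.2 CPM in DNp63 cells and 172 and 114 CPM in GFP cells, missed overlap only narrowly (−0.58 ± 0.27). The other forms COX4I2, COX6A2, COX7A1, COX7B2 and COX8C had 0 counts in all 8 libraries, which allows a level of up to 0.292 CPM in the deepest library and 1.11 CPM in the shallowest. COX6B2, a form known from testis, had 1 and 2 counts in DNp63 cells, 0 and 0 in GFP and in induced cells, and 0 and 1 in uninduced cells. UQCRBP1, a pseudogene whose symbol matches, and ATP5L2, the remaining members not tested, also had 0 counts in all libraries.

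COX7B stood apart from the rest of complex IV. It had 75 and 0 counts in DNp63 cells and 91 and 4 in GFP cells, or 21.4 and 0 CPM and 33.6 and 0.847 CPM. In the inducible system it had 12 and 12 counts in induced cells and 8 and 33 in uninduced cells, or 1.48 and 2.36 CPM and 1.61 and 3.21 CPM. Both replicate 1 libraries of the constitutive system were therefore far above the other 6, and the estimate of −0.68 has an SE of 1.39.

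Complex V, ATP synthase, has a rotor with a ring of c subunits and a catalytic head of alpha and beta subunits. All 16 members tested had an estimate below 0, in 15 of the 16 the groups did not overlap, and 2 fell. Of all genes, 22.0% were lower without overlap and 3.99% were called lower. ATP5B, the catalytic beta subunit, was at 1046 and 836 CPM in DNp63 cells and 1539 and 1523 CPM in GFP cells. It was at 1641 and 1529 CPM in induced cells and 1440 and 1493 CPM in uninduced cells. The DNp63 libraries were the lowest, and ATP5B fell by 0.70 (SE 0.18, adjusted p = 0.0357). ATP5A1, the alpha subunit, was at 374 and 319 CPM in DNp63 cells and 514 and 514 CPM in GFP cells, without overlap, and did not pass (−0.57 ± 0.17, adjusted p = 0.0709). In induced cells it was at 489 and 539 CPM and in uninduced cells at 517 and 529 CPM.

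The genes ATP5G1, ATP5G2 and ATP5G3, encode the same mature c subunit with different import sequences. ATP5G1 was at 39.7 and 47.5 CPM in DNp63 cells, against 59.5 and 162 CPM in GFP cells. It was at 126 and 143 CPM in induced cells and 154 and 148 CPM in uninduced cells, so that GFP replicate 1 lay nearer to the DNp63 libraries than to the other controls. ATP5G1 fell by 1.35 (SE 0.36, adjusted p = 0.0462), the estimate farthest from 0 of any member, but without GFP replicate 2 it was −0.46 with an adjusted p of 0.338. ATP5G2 was at 257 and 263 CPM in DNp63 cells and 347 and 449 CPM in GFP cells, without overlap (−0.62 ± 0.19, adjusted p = 0.0756). ATP5G3 was at 139 and 118 CPM in DNp63 cells and 159 and 226 CPM in GFP cells, also without overlap (−0.59 ± 0.21, adjusted p = 0.120). The others reached from −0.66 ± 0.25 for ATP5O, which joins the head to the stalk, to −0.23 ± 0.25 for ATP5C1, the rotating gamma subunit and the only member of complex V whose groups overlapped.

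Of the 6 calls, all but SDHA were lost when most single libraries were left out. Between 1 and 19 members were called lower over the 8 such fits: 10 without DNp63 replicate 1, 8 without DNp63 replicate 2, 19 without GFP replicate 1, 2 without GFP replicate 2 and 1 without each single induced or uninduced library. The median stayed between −0.59 and −0.36. With only the 4 constitutive libraries in the fit, none was called (11 at an unadjusted p below 0.05), the median was −0.49 and the adjusted p of SDHA was 0.144. By name, 47 of the 77 members tested have at least 1 pseudogene in RefSeq, so reads of these could be divided by the counting; SDHA has 4 such names, ATP5G1 8, COX4I1 2, and NDUFA9 and ATP5B 1 each.

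Within each vector number the members were lower with DNp63 than with GFP, less so with pLEX_306. The median log2 difference over the 77 members was −0.21 between the pLEX_306 libraries, with 57 of 77 below 0, and −0.67 between the pLEX_307 libraries, with 76 of 77 below 0. The same medians over all genes were 0.01 for both. For complex I they were −0.09 with pLEX_306 and −0.59 with pLEX_307, and for complex V −0.37 and −0.69. SDHA was at −0.88 and −0.91 and COX4I1 at −0.67 and −0.71, close to each other, while ATP5G1 was at −0.58 and −1.76. TP63 was at 1850 CPM in the pLEX_306 and 3816 CPM in the pLEX_307 library of the DNp63 cells, and its part in this was not tested. Each vector has 1 library per group, so these differences have no replicate check. Vector and replicate number coincide in these groups, so the vector and any other difference between the replicates cannot be told apart.

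Some members differed between the vector libraries in the same direction with DNp63 and with GFP. A difference of over 0.5 log2 CPM with the same sign in both was found for 8 of 77 members, against 1572 of all genes (12.8%). Higher with pLEX_306 than with pLEX_307 were COX7A2, COX7B, UQCRB, UQCRFS1 and UQCRHL, and lower were NDUFB4, NDUFB6 and SDHC. The median of pLEX_306 minus pLEX_307 over the members was 0.23 with DNp63, where 50 of 77 were higher with pLEX_306, and −0.17 with GFP, where 23 of 77 were. All 10 members of complex III tested were higher with pLEX_306 among the DNp63 libraries, with a median of 0.68. The difference between replicates 1 and 2 had an SD of 0.84 with DNp63 and 0.75 with GFP over the members, against 0.23 in induced and 0.21 in uninduced cells; over all genes these SDs were 0.75, 0.71, 0.51 and 0.36. COX7B carried much of it: without it the SD over 76 members was 0.53 with DNp63 and 0.48 with GFP, below that of all genes. Members that differed by over 1 log2 CPM between the vectors were 7.79% with DNp63 and 7.79% with GFP, against 14.2% and 12.8% of all genes.

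**Figure D4:**
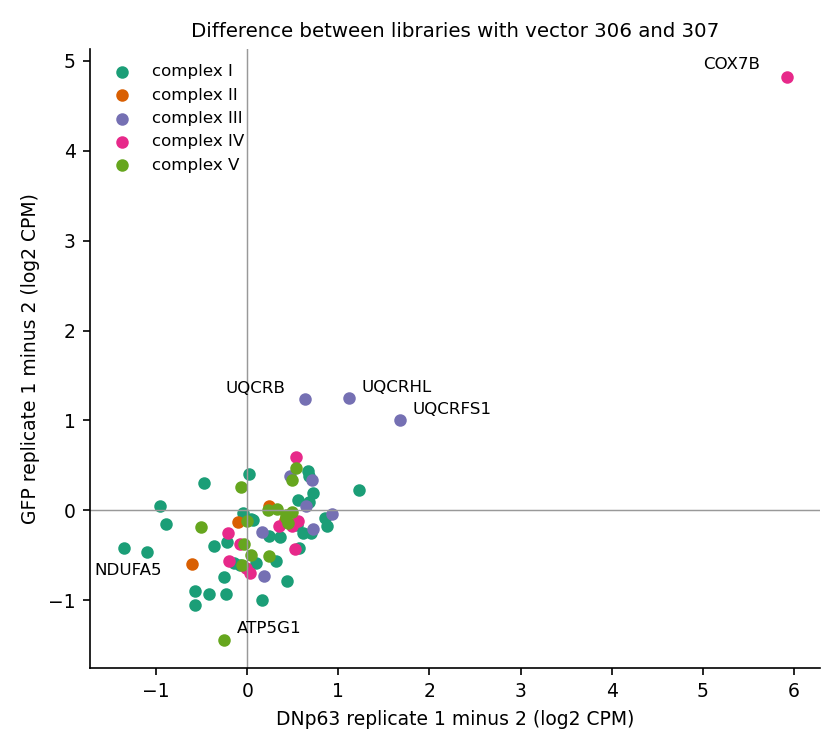
Difference between replicate 1 (pLEX_306) and replicate 2 (pLEX_307) in log2 CPM for each of the 77 members tested, with DNp63 on the horizontal and GFP on the vertical axis, coloured by complex. COX7B lies far off at 5.92 and 4.82, and UQCRFS1 at 1.68 and 1.00; most others are within 1 of 0.

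With doxycycline-induced DNp63 no member passed the test. Induced cells differ from uninduced cells in the drug as well as in DNp63, and these cannot be told apart here. The median log2 fold change of the 77 members, induced over uninduced, was −0.01 (99.1%), beside 0.00 for all genes, and 41 of 77 were below 0, against 50.1% of all genes. The test called 0 members higher, against 0.236% of all genes, and 0 lower, against 0.0488%. At an unadjusted p below 0.05 there were 0 members higher, against 3.47% of all genes, and 0 lower, against 2.57%, and DESeq2 called none. These counts rest on the spread shared with the constitutive libraries. With only the induced and uninduced libraries in the fit, 6 members were higher and 3 lower at an unadjusted p below 0.05. No member was called in that fit, where 435 of all genes were called higher and 336 lower. The induced libraries were both below the uninduced ones for 16 members, against 24.0% of all genes, and both above for 13, against 22.9%. By complex the median was 0.00 for I, −0.02 for II, 0.10 for III, −0.06 for IV and −0.08 for V.

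In each complex the member with the smallest unadjusted p in the induced comparison is given here. The SEs come from the spread shared by the 4 groups, and so are not the scatter of the inducible libraries alone. NDUFS4, an accessory subunit of the matrix arm of complex I, was at 23.3 and 24 CPM in induced cells and 17.1 and 17.3 CPM in uninduced cells, without overlap (0.46 ± 0.25, adjusted p = 0.922). UQCRQ of complex III was at 51.1 and 60.8 CPM in induced cells and 71.4 and 76.9 CPM in uninduced cells (−0.41 ± 0.25, adjusted p = 0.945). COX5B of complex IV was at 299 and 252 CPM in induced cells and 242 and 221 CPM in uninduced cells (0.25 ± 0.23, adjusted p = 0.983). ATP5J2 of complex V was at 189 and 199 CPM in induced cells and 226 and 228 CPM in uninduced cells (−0.23 ± 0.21, adjusted p = 0.984). In complex II it was SDHD, given above, at −0.09 ± 0.20.

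The other catalytic subunits lay as close in the inducible system. NDUFV1 was at 294 and 325 CPM in induced cells and 302 and 284 CPM in uninduced cells, and NDUFS1 at 108 and 111 CPM in induced cells and 90.8 and 122 CPM in uninduced cells. UQCRC1 was at 305 and 341 CPM in induced cells and 311 and 299 CPM in uninduced cells. Those 3 overlapped, while CYC1, at 426 and 434 CPM in induced cells and 386 and 383 CPM in uninduced cells, did not (0.16 ± 0.26). COX5A, at 187 and 148 CPM in induced cells and 136 and 153 CPM in uninduced cells, overlapped (0.21 ± 0.20).

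Most forms of the same subunit also lay close in induced and uninduced cells. ATP5G2 was at 481 and 568 CPM in induced cells and 528 and 498 CPM in uninduced cells, and ATP5G3 at 191 and 213 CPM in induced cells and 213 and 227 CPM in uninduced cells. COX6A1 was at 453 and 482 CPM in induced cells and 517 and 487 CPM in uninduced cells, and COX6B1 at 209 and 247 CPM in induced cells and 216 and 211 CPM in uninduced cells. The estimates for these 4 lay between −0.13 for ATP5G3 and 0.09 for COX6B1. ATP5G3 and COX6A1 were lower in both induced libraries, as were 24.0% of all genes. COX7A2 was at 112 and 107 CPM in induced cells and 104 and 154 CPM in uninduced cells, and COX8A at 211 and 202 CPM in induced cells and 227 and 196 CPM in uninduced cells. UQCRH was at 203 and 168 CPM in induced cells and 142 and 163 CPM in uninduced cells, and UQCRHL at 6.92 and 7.67 CPM in induced cells and 4.63 and 4.86 CPM in uninduced cells. Both genes of the hinge protein pair were thus higher in both induced libraries, as were 22.9% of all genes. Neither passed (0.28 ± 0.19 for UQCRH, 0.61 ± 0.49 for UQCRHL), and UQCRHL had the largest induced estimate of any member.

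Since the constitutive and the induced effect come from separate controls, their difference was tested for each gene. The induced minus the constitutive effect had a median of 0.46 over the members and −0.01 over all genes, and was above 0 for 70 of the 77. No member passed, neither higher, against 0.293% of all genes, nor lower, against 0.252%. At an unadjusted p below 0.05, 16 members were higher, against 6.71% of all genes, and 0 lower, against 5.45%; DESeq2 called none. NDUFA1 had the smallest adjusted p, 0.171, with a difference of 1.21 ± 0.34, and SDHA followed with 0.85 ± 0.25 (adjusted p = 0.192). ATP5B had a difference of 0.81 ± 0.25 (adjusted p = 0.206) and NDUFS4 of 1.21 ± 0.37 (adjusted p = 0.212). The effect of constitutive DNp63 on single members was thus not shown to differ from that of induced DNp63. TP63 itself was at a lower level in the induced cells than in the DNp63 cells, as given above, and that part was not tested. The induced effect also includes any effect of doxycycline, for which the labels of the constitutive libraries give no dose.

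For 8 members both DNp63 libraries were below both GFP libraries while both induced libraries were above both uninduced libraries: NDUFA1, NDUFB5, NDUFS4, NDUFV2, CYC1, UQCRH, ATP5B and ATP5S. These are 10.4% of the 77 members, and 3.64% of all genes had this pattern. Taken singly, the constitutive order was found in 55.8% of the members, against 22.0% of all genes. The induced order was found in 16.9%, against 22.9%. The larger share with both orders thus goes with the constitutive order alone, and is not read as an opposite response. NDUFA1 was at 55.3 and 60.4 CPM in induced cells and 43.7 and 44.3 CPM in uninduced cells, opposite to its order in the constitutive system.

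Averaged over both systems no member passed, with 0 called lower, against 2.41% of all genes, and 0 higher, against 3.26%. The median was −0.23 over the members and −0.01 over all genes, and 72 of 77 were below 0. At an unadjusted p below 0.05, 14 were lower, against 9.17% of all genes, with 0 higher, against 9.90%. DESeq2 called 2 members lower, where it called 357 of 12295 genes lower. With the replicate number as a block 1 was called lower, ATP5G1 (−0.69, adjusted p = 0.0329), where 465 of 12303 genes were called lower. Without the block SDHA came nearest, with −0.47 ± 0.12 and an adjusted p of 0.0525. ATP5G1 (−0.76 ± 0.25, adjusted p = 0.117), NDUFA9 (−0.46 ± 0.15, adjusted p = 0.102), NDUFA4 (−0.46 ± 0.15, adjusted p = 0.118) and UQCRC2 (−0.32 ± 0.17, adjusted p = 0.352) had the smallest p in their complexes.

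Between the control groups, uninduced against GFP cells, no member passed the test. The median was 0.09 over the members and −0.01 over all genes. The test called 0 members higher, against 0% of all genes, and 0 lower, against 0.00813%; DESeq2 called none. At an unadjusted p below 0.05 there were 3 higher, NDUFC2, SDHD and NDUFS5, against 3.77% of all genes, and 0 lower, against 5.33%. Both uninduced libraries were above both GFP libraries for 22 members (28.6%), against 22.0% of all genes, and both below for 10 (13.0%), against 21.9%. NDUFC2, a membrane-arm subunit, was at 12.9 and 13.3 CPM in uninduced cells and 5.54 and 7.41 CPM in GFP cells, without overlap (0.99 ± 0.38, adjusted p = 0.480). COX6C of complex IV was at 129 and 135 CPM in uninduced cells and 74.3 and 121 CPM in GFP cells (0.43 ± 0.23), and ATP5J2 was at 226 and 228 CPM in uninduced cells and 133 and 202 CPM in GFP cells (0.43 ± 0.21). UQCRHL was at 4.63 and 4.86 CPM in uninduced cells and 14.04 and 5.72 CPM in GFP cells (−1.004 ± 0.508). The uninduced and GFP cells differ in vector as well as in the TP63 level given above, and these cannot be told apart here.

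Other genes of the same pathways were set beside the members from lists that do not overlap them. The tricarboxylic acid cycle, which feeds NADH and succinate into the chain, had a median log2 fold change of −0.42 over 17 genes for DNp63 against GFP, with 14 below 0 and 2 that fell, where 3.99% of all genes were called lower. Citrate synthase, CS, was at 317 and 254 CPM in DNp63 cells and 492 and 433 CPM in GFP cells and fell by 0.70 (SE 0.19, adjusted p = 0.0450). IDH3G, a subunit of the NAD-dependent isocitrate dehydrogenase, fell by 0.89 (SE 0.24, adjusted p = 0.0481). For induced against uninduced cells the median of this list was 0.05, with none called by edgeR or DESeq2 and 0 at an unadjusted p below 0.05.

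The assembly factors of the complexes had a median of −0.20 over 50 genes, with 35 below 0 and 3 that fell, where 3.99% of all genes were called lower. These were FOXRED1 (−0.78 ± 0.20, adjusted p = 0.0393), which acts in complex I assembly, and the complex IV factors COX17 (−1.08 ± 0.28, adjusted p = 0.0391), a copper chaperone, and COA1 (−1.08 ± 0.25, adjusted p = 0.0276). COX17 was at 34.3 and 34.1 CPM in DNp63 cells and 49.9 and 93.4 CPM in GFP cells. The mitochondrial ribosomal proteins, which translate the subunits encoded in mitochondrial DNA, had a median of −0.20 over 77 genes, with 3 that fell, MRPL23, MRPL36 and MRPS24, a share close to that of all genes. The genes for import through the mitochondrial membranes had a median of −0.14 over 22 genes, and 1 fell, TIMM13 (−0.86 ± 0.21, adjusted p = 0.0324), again close to the 3.99% of all genes. No gene among the counts matched the symbols searched for subunits encoded in mitochondrial DNA, so these were not analysed here.

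Of 16 known regulators of respiratory chain genes none passed, by edgeR or by DESeq2, with a median of −0.19 and 10 below 0; 1 was lower at an unadjusted p below 0.05. The transcription factor gene NRF1 was at 0.06 ± 0.31, GABPA, a subunit of GABP, at −0.52 ± 0.35, and ESRRA, a nuclear receptor that acts on these genes, at −0.55 ± 0.21 (adjusted p = 0.149). The coactivator genes PPARGC1A, at 0.50 ± 0.48, and PPARGC1B, at −1.20 ± 0.55, did not pass. Among 8 partners of the complexes whose symbols lie outside the patterns, such as cytochrome c, CYCS (−0.41 ± 0.28), none passed by either tool, 1 was lower at an unadjusted p below 0.05 and the median was −0.25. One of these, C14orf2, a small protein attached to ATP synthase, split by replicate number like COX7B. It was at 40.3 and 3.69 CPM in DNp63 cells and 38.8 and 4.45 CPM in GFP cells.

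Lists of genes outside mitochondria were set beside the members in the same libraries. The cytosolic ribosomal proteins had a median of −0.56 over 80 genes for DNp63 against GFP. Of these, 79 were below 0 and 21 fell, where 3.99% of all genes were called lower. For induced against uninduced the median was 0.04, with none called by edgeR or DESeq2 and 1 higher at an unadjusted p below 0.05. Their summed level was 80500 and 84970 CPM in DNp63 cells and 134300 and 111900 CPM in GFP cells. The targets of ATF4, the transcription factor of the amino acid stress response, had a median of 0.90 over 14 genes, with 12 above 0. Of these only NUPR1, a stress-induced chromatin protein, was called, where 4.17% of all genes were called higher. It rose by 1.99 (SE 0.38, adjusted p = 0.00976). The summed level of the ATF4 targets was 7019 and 4103 CPM in DNp63 cells and 5149 and 2270 CPM in GFP cells, with overlap. The pLEX_306 library was the higher of each group. Over these genes the median of pLEX_306 minus pLEX_307 was 1.09 log2 CPM with DNp63 and 1.76 with GFP. In induced cells the summed level was 2503 and 2543 CPM and in uninduced cells 2636 and 2616 CPM. The part of the ribosomal protein genes, the ATF4 targets and the vector in the lower level of the members was not tested.

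**Figure D5:**
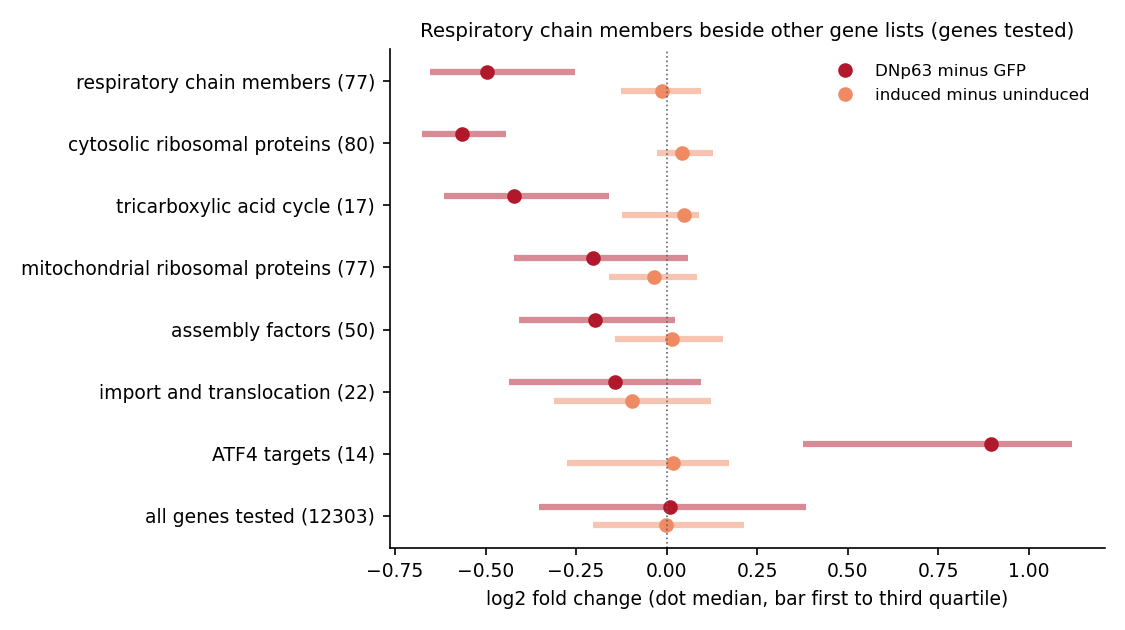
Median (dot) and interquartile range (bar) of the log2 fold change over the genes tested in each list (number in brackets), with DNp63 minus GFP in red and induced minus uninduced in orange. For DNp63 minus GFP the respiratory chain members (−0.50), cytosolic ribosomal proteins (−0.56) and tricarboxylic acid cycle (−0.42) lie left of all genes (0.01), and ATF4 targets (0.90) to the right; for induced minus uninduced all lists lie near 0.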

How the data were processed

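The deposited table holds raw counts per gene for 8 directional libraries of polyA RNA, sequenced with paired reads of 38 bp per the labels. Per the submitters' processing notes, the authors aligned reads with TopHat2 2.1 to hg19 and counted with HTSeq, with SAMtools and DESeq2 also named; the sources used here give neither annotation nor strand setting. Genes were kept by filterByExpr (edgeR 4.0.16, R 4.3.3) with a minimum count of 10. TMM scaling was used, and 1 model with 4 group means and a shared spread was fitted over all 8 libraries (quasi-likelihood, legacy estimates, two-sided, Benjamini-Hochberg over 12303 genes, called below 0.05). Log2 CPM used a prior count of 2. The script was tested on simulated data. DESeq2 1.42.0 and other settings were tried as alternatives.

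Fold changes are DNp63 over GFP, induced over uninduced, their average and difference, and uninduced over GFP. Given in full are called members, the member of smallest p per complex and comparison, complex II, catalytic subunits and isoform sets; 1 of these members is not reported here. The members and lists were chosen with earlier results of these data known. Floors cover counting error only. Promoter windows and pseudogene names come from RefSeq (GRCh38.p14), a build other than that of the counts, and 84 of 85 members matched a symbol.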

Additional observations from a re-analysis of the deposited data

How the results depend on the processing

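The constitutive count of 6 members called lower was 15 with no filter on low counts, 10 with DESeq2 and 0 with only the libraries compared, and 1 to 19 when leaving out each library in turn. The median of the members in that comparison lay between −0.5923 and −0.3599 over the same leave-outs. Averaged over both systems, 0 members called lower became 2 with no filter, 2 with DESeq2, 1 without legacy estimates, 1 with the replicate block and 0 to 5 when leaving out a library. For the difference between systems, 0 members called higher became 2 with no filter and 0 to 2 over the leave-outs, with the median between 0.3381 and 0.5683. For the control groups 1 member was called lower with no filter, and the median lay between 0.0186 and 0.2136 over the leave-outs. Leave-outs and the fits below leave 1 library in a group, which is then assumed to vary like the others. Without both pLEX_306 libraries, chosen after seeing the data, 47 members were called lower in the constitutive comparison (median −0.673), 41 in the averaged one (median −0.3363) and 1 between the controls, and 39 higher in the difference (median 0.6824). Without both pLEX_307 libraries, also chosen after seeing the data, 19 were called lower and 1 higher in the constitutive comparison (median −0.2241), 15 lower and 2 higher in the averaged one (median −0.1328), 10 higher and 1 lower in the difference (median 0.289), and 17 higher and 4 lower between the controls (median 0.2219). In both of these fits the spread comes from the inducible libraries alone. Over all genes, the 1004 called in the constitutive comparison were 275 with only the libraries compared, 1791 with no filter, 452 to 1438 over the leave-outs and 2873 and 2192 without the pLEX_306 and without the pLEX_307 libraries. The 35 called in the induced comparison were 86 with DESeq2, 87 with the replicate block, 242 with no filter, 771 with only the libraries compared, 2 to 104 over the leave-outs and 817 and 811 without each vector's libraries, with 0 members called in each. The 697 of the averaged comparison were 1372 with no filter, 225 to 1113 over the leave-outs and 2859 and 2104 without each vector's libraries. The 67 of the difference were 253 with DESeq2, 270 with the replicate block, 558 with no filter, 0 to 446 over the leave-outs and 1685 and 1597 without each vector's libraries. The 1 gene called between the controls became 53 with DESeq2, 245 with no filter, 0 to 43 over the leave-outs and 957 and 1694 without each vector's libraries. The replicate number marks the vector in the DNp63 and GFP groups and only a replicate in the inducible ones, so the block was not used in the fit reported. Deviations of same-numbered libraries correlated at 0.22 for DNp63 and GFP and −0.033 for induced and uninduced over 12303 genes. With the replicate block, 9 members were called lower in the constitutive comparison and 1 in the averaged one. Of the alternatives for single members, 450 kept the side of the threshold, 42 lost a call and 46 gained one. No called value of a named member changed sign. Values that were not called did, such as the induced median of the members (−0.0939 to 0.0446) and SDHD in the induced comparison (−0.3003 to 0.095) over the leave-outs. Other size factors changed no count of members called by more than 1. The causes of these shifts were not tested.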
